A study of Homo sapiens with 4 samples.

Results

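The BCL2 family decides whether a cell under stress opens the outer mitochondrial membrane and dies by apoptosis. Its 10 members considered here are 3 pro-survival proteins (BCL2, BCL2L1 and MCL1), 2 effectors (BAX and BAK1) and 5 BH3-only proteins (BCL2L11, BID, BAD, BBC3 and PMAIP1). They were looked up by gene symbol among the probe sets, the groups of short array probes that report on the same transcript, that carry a single symbol. Of the 10 members, 9 were measured, each by 1 probe set, among 17716 measured genes. The deposited table holds 18062 probe sets with a single symbol, so it lists about 1 per gene, and how these were chosen from the array is not known here. A member called dim is dim on the probe set that was listed. The probe set of BBC3 is annotated to 3 genes and was not used. After the dimmest 30% of genes by mean of all arrays were left out, 7 members remained among 12401 tested genes. BCL2 and BCL2L11 were left out as dim.

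The arrays were Affymetrix expression arrays of Hs683, an established human glioma cell line. The groups were 2 arrays of cells transduced with miR-20a and 2 arrays of cells transduced with a scrambled microRNA labelled as non-targeting (miR-NT). The cells of both groups carried a knockdown of QK (current symbol QKI), an RNA-binding protein, so the miR-NT cells are no unmodified control. The comparison asks what miR-20a adds to glioma cells with reduced QKI.

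Apoptosis through mitochondria is set by binding between the members. BCL2L1 (BCL-XL), BCL2 and MCL1 hold BAX and BAK1 in check, BH3-only proteins occupy the groove of the pro-survival proteins or act on the effectors directly, and freed BAX and BAK1 form pores that release cytochrome c. In gliomas BCL2L1 and MCL1 are well known survival factors. BCL2L11 (BIM) is known from published work as a target of miR-17 family microRNAs, among them miR-20a.

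A microRNA is guided mainly by its seed, bases 2 to 8 from the 5′ end. The mature sequence of the microRNA that distinguishes the groups is shown with 2 relatives because they carry the same seed, printed in capitals. In the RefSeq microRNA table (GRCh38.p14) 8 mature human microRNAs have it. The sequence of miR-20a lies at chr13:91351072-91351094 and that of miR-17 at chr13:91350618-91350640, both on the plus strand, and that of miR-106b at chr7:100094043-100094063 on the minus strand.
hsa-miR-20a-5p: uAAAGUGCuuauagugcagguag
hsa-miR-17-5p: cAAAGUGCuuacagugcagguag
hsa-miR-106b-5p: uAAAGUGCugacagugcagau
The others with this seed are miR-20b-5p, miR-93-5p, miR-106a-5p, miR-519d-3p and miR-526b-3p. Mature microRNAs were not measured by these arrays, so the level of miR-20a in each sample is not known here.

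Array medians of the deposited log2 values lay between 6.43 and 6.45. QKI measured 7.52 and 7.08 with miR-20a and 8.14 and 7.92 with miR-NT. Its log2 fold change was −0.73 (SE 0.16, limma adjusted p = 0.106), larger in size than that of any BCL2 family member. The groups were thus not equal in QKI signal, and the part of that difference in the results was not tested. Cells without the knockdown were not analysed here. Of the glial and glioma markers VIM, CD44 and SOX10 were above the filter on dim genes, while GFAP, S100B, OLIG2 and NES were left out as dim. Of the markers of other cell types KRT8 (epithelial) and PECAM1 (endothelial) were above that filter and EPCAM, CDH1, CDH5, VWF, PTPRC and CD14 below it. CD44 measured 10.53 and 10.08 with miR-20a and 11.24 and 11.12 with miR-NT (log2 fold change −0.87, limma adjusted p = 0.0949), a larger difference than that of any BCL2 family member. PECAM1 was at 0.30 without overlap of the groups (limma adjusted p = 0.202). The part of these markers in the results was not tested. Control probes near the 5′ end of 2 abundant transcripts, which are used to judge how intact and how fully labelled the RNA was, read lower on both miR-20a arrays. That of ACTB measured 11.59 and 10.43 with miR-20a and 12.78 and 12.66 with miR-NT, and that of GAPDH 13.17 and 12.30 with miR-20a and 13.89 and 13.81 with miR-NT. Only 5′ control probes of ACTB and GAPDH were found among the deposited values. Lower RNA quality and lower levels of these 2 transcripts therefore cannot be told apart. The part of these controls in the results was not tested. A fit with the ACTB control as a covariate is given below, but it cannot separate that control from miR-20a. The control differed by −1.71 between the groups, by −1.16 within the miR-20a pair and by −0.11 within the miR-NT pair. Its slope in that fit thus rests mainly on the difference between the 2 miR-20a arrays. In that fit every tested member had the same SE, 0.25, so the spread of the single gene did not enter. Nothing in the labels tells if replicates came from separate cultures, so the spread behind each p-value may be technical only.

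No member of the BCL2 family differed between the groups at an adjusted p under 0.05 in limma over all tested genes. That threshold was passed by 0 genes with higher and 1 gene with lower values, which is 0.00806% of the genes tested. At an unadjusted p under 0.05, 1 member was higher with miR-20a (MCL1) and 2 were lower (BCL2L1 and BAX). Of all tested genes 5.82% were higher and 13.2% lower. That imbalance depended on the processing: 722 genes were higher and 1633 lower as reported, but 1583 and 1450 after quantile normalization. The arrays of the groups did not overlap in 4 of the 9 measured members, beside 53.9% of all measured genes. Of these 4, MCL1 and BCL2L11 were higher with miR-20a, beside 26.7% of all measured genes, and BCL2 and BCL2L1 were lower, beside 27.2%. Over the 9 measured members the median log2 fold change (miR-20a minus miR-NT) was −0.04, with 3 above 0 and 6 below. Over all measured genes the median was 0.003, and 49.5% were below 0. In RNA of whole cultures, a change in the share of cells that express a gene and a change in RNA per cell cannot be told apart.

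**Figure D1:**
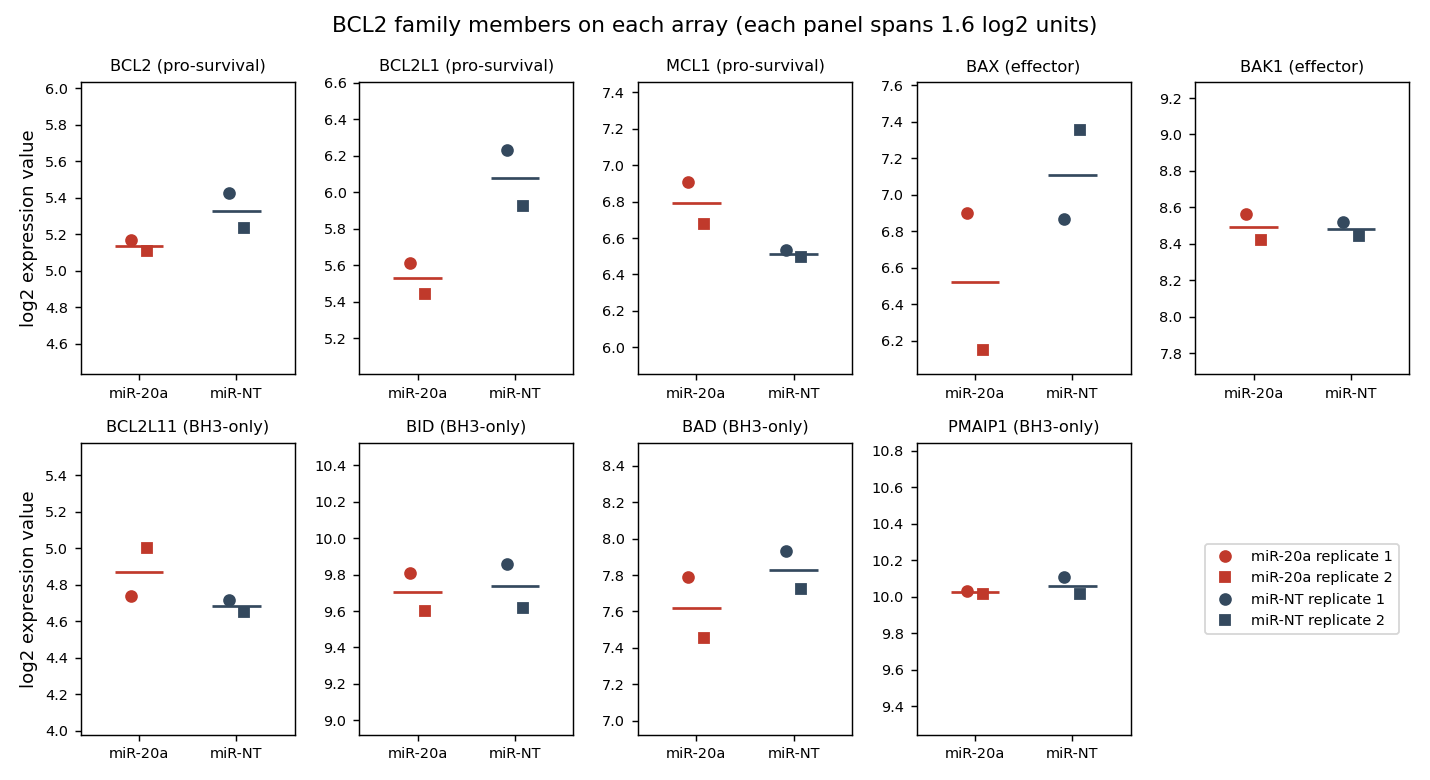
Log2 expression value (vertical axis) of each measured BCL2 family member on each array, miR-20a at the left and miR-NT at the right of each panel; circles are replicate 1, squares replicate 2, and lines the means of 2 arrays. Both miR-20a arrays lie below both miR-NT arrays for BCL2L1 and BCL2 and above them for MCL1 and BCL2L11, and the BAX arrays are spread widest in both groups.

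Among the pro-survival members, BCL2L1 had the largest difference. BCL2L1, which encodes the guardian BCL-XL, measured 5.61 and 5.44 with miR-20a, against 6.23 and 5.92 with miR-NT. Both miR-20a arrays were low and the groups did not overlap. The arrays of the groups nearest to each other were separated by about as much as the miR-NT arrays were from one another. The means were 5.53 ± 0.12 with miR-20a and 6.08 ± 0.22 with miR-NT (SD, n = 2 each, log2), a log2 fold change of −0.55 (SE 0.13, 95% interval −0.86 to −0.25), or 1.47-fold lower. By p it ranked 346 among all tested genes and did not pass (limma adjusted p = 0.122). Without miR-20a replicate 1 its log2 fold change was −0.64, in a fit that took the spread of that group from the other. With the ACTB 5′ covariate its log2 fold change was −0.26 (limma adjusted p = 0.957).

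MCL1, a short-lived guardian that binds BAK1 and the BH3-only protein PMAIP1, had values in the other direction. MCL1 measured 6.91 and 6.68 with miR-20a, against 6.53 and 6.50 with miR-NT. Both miR-20a arrays were above both miR-NT arrays, replicate 2 by less than replicate 1. The arrays of the groups nearest to each other were separated by less than the miR-20a arrays were from one another. Its log2 fold change was 0.28 (SE 0.11, 95% interval 0.02 to 0.54), or 1.21-fold higher, and did not pass (limma adjusted p = 0.242). The value was 0.17 without miR-20a replicate 1 and 0.40 without replicate 2, and 0.62 with the ACTB 5′ covariate, where it did not pass either (limma adjusted p = 0.476). BCL2, the founding member of the family and a guardian at mitochondria and the endoplasmic reticulum, measured 5.17 and 5.11 with miR-20a, against 5.42 and 5.23 with miR-NT. The groups did not overlap, but the arrays nearest to each other were separated by less than the miR-NT arrays were from one another. BCL2 lay under the filter on dim genes, whose lowest kept mean was 5.46. In the fit without that filter its log2 fold change was −0.19 (SE 0.11, 95% interval −0.44 to 0.06, limma adjusted p = 0.378). It was −0.094 and −0.29 when miR-NT replicate 1 or 2 was left out, and −0.078 with the ACTB 5′ covariate. Probe sets cannot separate isoforms here, so the long and short products of BCL2L1 and MCL1, which have opposite actions, are not told apart.

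Of the effectors, BAX varied with single arrays and BAK1 gave nearly equal values in both groups. BAX, which shifts from the cytosol to mitochondria when activated, measured 6.90 and 6.15 with miR-20a, against 6.86 and 7.35 with miR-NT. The groups overlapped: miR-20a replicate 1 lay above miR-NT replicate 1, and only miR-20a replicate 2 was low. Within the pairs, replicate 2 minus replicate 1 was −0.75 with miR-20a and 0.49 with miR-NT. The log2 fold change of BAX was −0.59 (SE 0.25, 95% interval −1.17 to −0.0043), numerically the largest of the members, and did not pass (limma adjusted p = 0.261). It came to −0.21 without miR-20a replicate 2, to −0.34 without miR-NT replicate 2 and to −0.83 without miR-NT replicate 1. Without miR-20a replicate 1 it was −0.96, with only replicate 2 left in that group. With the ACTB 5′ covariate it turned to 0.45 (limma adjusted p = 0.82). BAK1, the effector that resides on mitochondria, measured 8.56 and 8.42 with miR-20a, against 8.52 and 8.44 with miR-NT. Its log2 fold change of 0.01 had a 95% interval from −0.23 to 0.25 (SE 0.10, limma adjusted p = 0.939), and it was 0.23 with the ACTB 5′ covariate.

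**Figure D2:**
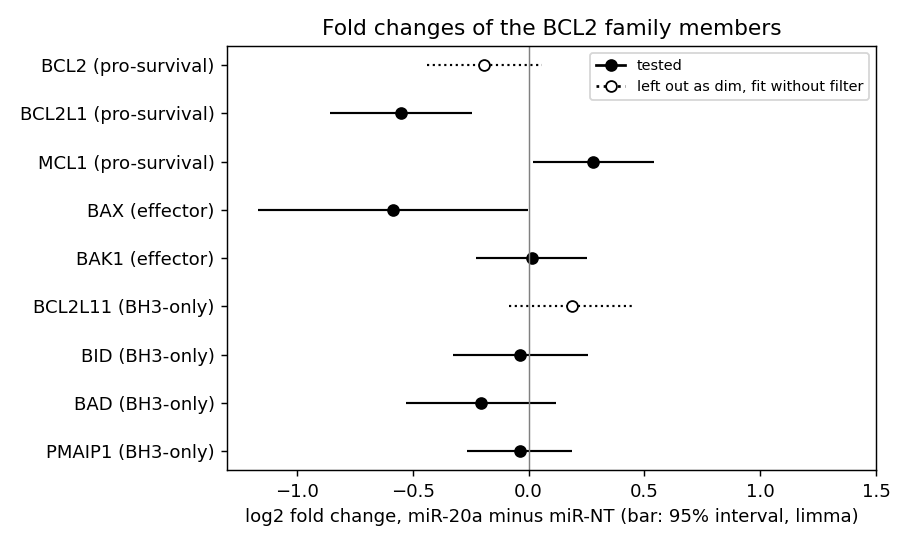
Log2 fold change, miR-20a minus miR-NT (horizontal axis), of each measured member in the limma fit; points are estimates from 2 arrays a group and bars 95% intervals not adjusted for the number of genes, dotted with open points for BCL2 and BCL2L11, which come from the fit without a filter on dim genes. The intervals of BCL2L1 (−0.86 to −0.25), BAX and MCL1 do not reach 0 and those of the other members do; none of the members passed after adjustment over all genes.

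The BH3-only members, which sense stress and start the pathway, included the published miR-17 family target. BCL2L11 (BIM), which binds every pro-survival member and can activate BAX and BAK1, measured 4.74 and 5.002 with miR-20a, against 4.71 and 4.65 with miR-NT. Both miR-20a arrays were above both miR-NT arrays, replicate 1 only slightly. This is a dim signal, and in the fit without a filter its log2 fold change was 0.19 (SE 0.12, 95% interval −0.08 to 0.46, limma adjusted p = 0.412). In that fit BCL2L11 was not lower with miR-20a, and whether the dim signal hides a decrease was not tested. The value was 0.06 without miR-20a replicate 2 and 0.32 without replicate 1, and −0.19 with the ACTB 5′ covariate (limma adjusted p = 0.938).

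BAD, which is held inactive by phosphorylation and otherwise binds BCL2L1 and BCL2, measured 7.79 and 7.45 with miR-20a, against 7.93 and 7.72 with miR-NT. The groups overlapped, with miR-20a replicate 1 between the miR-NT arrays, and the log2 fold change was −0.21 (SE 0.14, 95% interval −0.53 to 0.12, limma adjusted p = 0.417). It was −0.04 without miR-20a replicate 2 and −0.37 without replicate 1, and −0.10 and −0.31 when miR-NT replicate 1 or 2 was left out, and it turned to 0.31 with the ACTB 5′ covariate (limma adjusted p = 0.932). BID, which links death receptors to mitochondria after cleavage by caspase-8, measured 9.81 and 9.60 with miR-20a, against 9.86 and 9.62 with miR-NT. In both groups replicate 2 lay below replicate 1, by more than the groups differed. The log2 fold change of BID was −0.04 (SE 0.12, 95% interval −0.33 to 0.26, limma adjusted p = 0.87), and it turned to 0.30 with the ACTB 5′ covariate. PMAIP1 (NOXA), a protein that binds MCL1, measured 10.03 and 10.01 with miR-20a, against 10.11 and 10.02 with miR-NT. Its log2 fold change was −0.04 (SE 0.10, 95% interval −0.26 to 0.19, limma adjusted p = 0.821). With these intervals, differences of up to about the stated bounds in BAK1, BID, BAD and PMAIP1 could not be told from the spread between arrays.

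The members also varied between arrays of the same group. Replicate 2 lay below replicate 1 in 8 of 9 members with miR-20a, beside 52.9% of all measured genes, and in 8 of 9 members with miR-NT, beside 60.6%. The median difference over the members was −0.17 within the miR-20a pair and −0.09 within the miR-NT pair. The exceptions were BCL2L11 with miR-20a (0.26) and BAX with miR-NT (0.49). The ACTB 5′ signal of replicate 2 was also below that of replicate 1 in both groups, by −1.16 with miR-20a and −0.11 with miR-NT; its part in these differences was not tested.

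**Figure D3:**
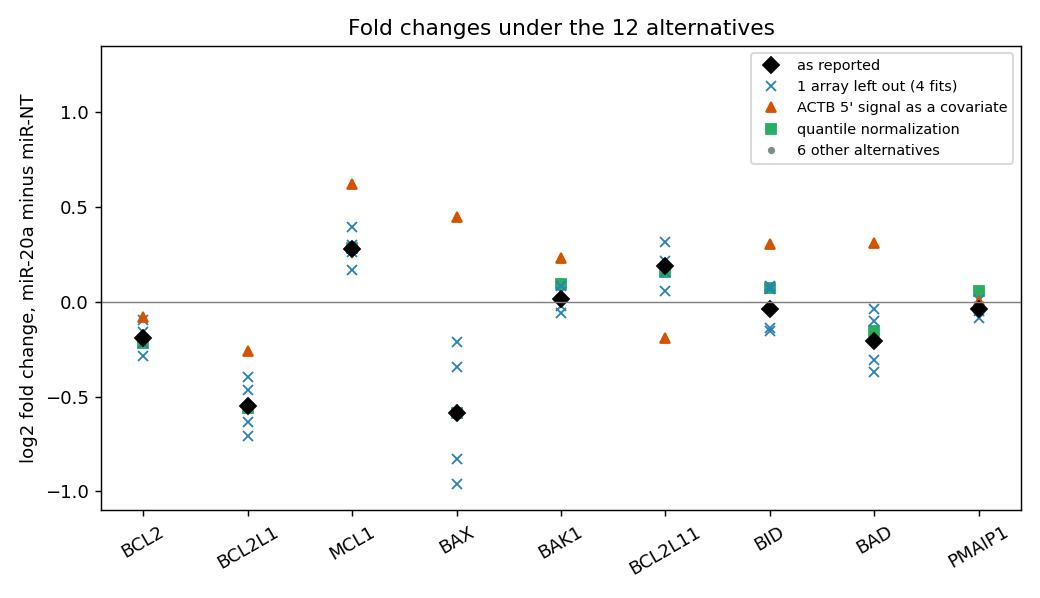
Log2 fold change, miR-20a minus miR-NT (vertical axis), of each member as reported (diamonds) and under 12 alternatives: 4 fits with 1 array left out (crosses), the ACTB 5′ covariate (triangles), quantile normalization (squares) and 6 others (dots, mostly hidden under the diamonds). BCL2, BCL2L1 and MCL1 keep their sign throughout, while BAX ranges from −0.96 to 0.45.

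Since the proteins act in pairs, the log2 difference between a pro-survival member and a binding partner was taken on each array. It is a difference in RNA signal, and the amounts of the proteins were not measured by these arrays. The offset of such a difference depends on the probes, so that only its shift between the groups can be read. The 9 pairs were chosen from known binding with the data at hand, they share genes and they were not tested. BCL2L1 minus BAK1 was −2.95 and −2.98 with miR-20a, against −2.28 and −2.52 with miR-NT, a shift of −0.56. BCL2L1 minus BID was −4.20 and −4.16 with miR-20a, against −3.62 and −3.70 with miR-NT, a shift of −0.52. BCL2L1 minus BAD was −2.18 and −2.01 with miR-20a, against −1.70 and −1.80 with miR-NT. Taken against BAK1, BID or BAD, BCL2L1 was lower on both miR-20a arrays. Because BAK1 (0.01) and BID (−0.04) differed little between the groups, the shifts against them largely repeat that of BCL2L1 alone (−0.55). MCL1 minus PMAIP1 was −3.12 and −3.33 with miR-20a, against −3.57 and −3.52 with miR-NT, a shift of 0.32. MCL1 minus BAK1 shifted by 0.27, also without overlap, beside 0.28 for MCL1 alone. MCL1 minus BCL2L11 overlapped, at 2.17 and 1.68 with miR-20a, against 1.82 and 1.84 with miR-NT. BCL2 minus BCL2L11 was 0.43 and 0.11 with miR-20a, against 0.71 and 0.58 with miR-NT, a shift of −0.38. Both genes of that pair lay under the filter on dim genes. BCL2 minus BAX, often read as a balance of survival and death, was −1.73 and −1.04 with miR-20a, against −1.44 and −2.12 with miR-NT, a shift of 0.40. The pairs with BAX overlapped between the groups, and the shift of BCL2L1 minus BAX was 0.04.

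**Figure D4:**
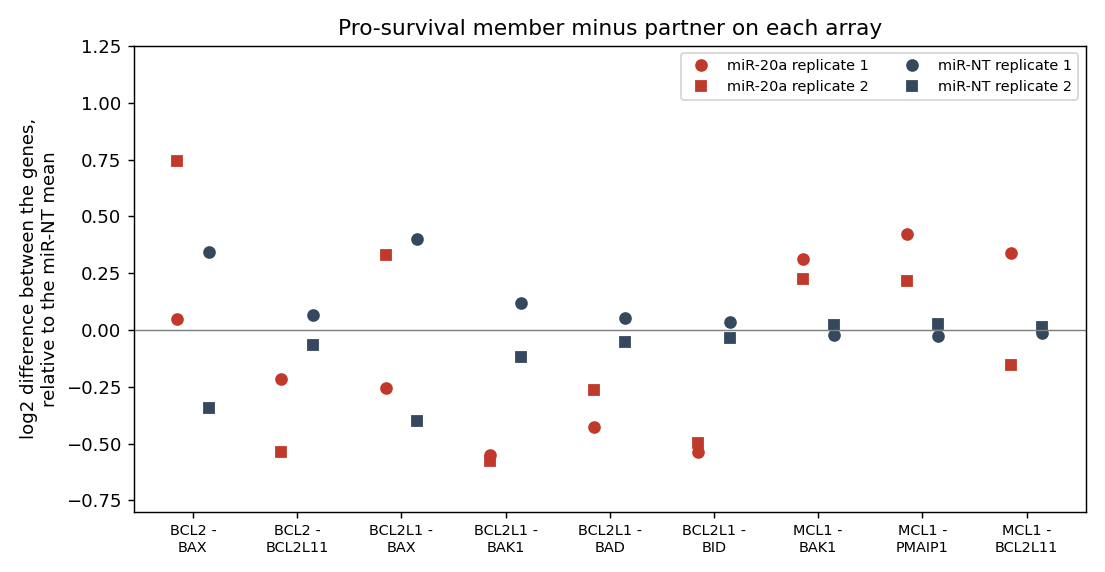
Log2 difference between a pro-survival member and a binding partner on each array, drawn relative to the mean of the miR-NT arrays (vertical axis), with miR-20a at the left and miR-NT at the right of each pair; circles are replicate 1 and squares replicate 2. BCL2L1 against BAK1 (shift −0.56), BID or BAD lies lower on both miR-20a arrays, and MCL1 against BAK1 or PMAIP1 lies higher. BCL2 against BCL2L11, both dim, lies lower, and the pairs with BAX and MCL1 against BCL2L11 overlap.

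The remaining genes of the pathway gave no gene past the threshold either. The 5 lists held 59 measured genes, 45 of them tested. Of 13 measured other members of the BCL2 family, 8 of them tested, 4 were above and 9 below 0, with a median log2 fold change of −0.04. BNIP3 and BNIP3L, mitophagy receptors related to the BH3-only proteins, had the smallest p among the tested genes of that list. BNIP3 measured 9.47 and 9.37 with miR-20a, against 9.78 and 9.81 with miR-NT (log2 fold change −0.37, SE 0.10, limma adjusted p = 0.143). BNIP3L was at −0.42 (SE 0.12, limma adjusted p = 0.158) and BCL2L14 at 0.19 (limma adjusted p = 0.376). Among the genes left out as dim, the BH3-only gene HRK was at 0.26 in the fit without a filter (limma adjusted p = 0.267).

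Downstream of the members, 15 genes of the apoptosome, the caspases and mitochondrial proteins lay at 5 above and 10 below 0, around a median log2 fold change of −0.14. Among the tested genes the smallest p belonged to AIFM1, a flavoprotein of the intermembrane space (−0.31), and to VDAC1 and VDAC3, pore proteins of the outer membrane (−0.44 and −0.41), all with limma adjusted p = 0.216. CYCS (cytochrome c), left out as dim, had the highest value of the list and, in the fit without a filter, a smaller p than these. It measured 5.45 and 5.59 with miR-20a, against 5.19 and 4.999 with miR-NT (log2 fold change 0.43, limma adjusted p = 0.167). APAF1, the scaffold of the apoptosome, was at 0.24 and the initiator caspase CASP9 at −0.13. The 6 measured inhibitors of apoptosis had a median of −0.15, with 2 above and 4 below 0. Among them BIRC6 was at −0.42 and XIAP, which blocks caspases directly, at −0.28 (limma adjusted p of 0.248 and 0.254), and BIRC5 (survivin) was at −0.12.

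The death receptor arm, which reaches the BCL2 family through BID, had 11 measured genes, 8 above and 3 below 0, around a median log2 fold change of 0.08. CFLAR, which restrains caspase-8, measured 7.80 and 8.17 with miR-20a, against 7.48 and 7.77 with miR-NT (log2 fold change 0.36, SE 0.15, limma adjusted p = 0.257). CASP8 was at 0.21 (limma adjusted p = 0.289) and the adaptor TRADD at 0.12. Among the genes left out as dim, the receptor FAS had the largest difference of the list, at 4.63 and 4.24 with miR-20a, against 4.92 and 4.79 with miR-NT (log2 fold change −0.42, limma adjusted p = 0.225 without a filter). The ligand TNFSF10 (TRAIL) was at 0.26 in that fit (limma adjusted p = 0.266). The 14 measured regulators of the members had a median of −0.10, with 4 above and 10 below 0. MARCHF5, a mitochondrial ubiquitin ligase that lowers MCL1, was at −0.36, AKT1, the kinase that phosphorylates BAD, at −0.32, and the transcription factor JUN at 0.37 (limma adjusted p from 0.216 to 0.239). In all 5 lists together 12 of the 45 tested genes reached an unadjusted p under 0.05 in limma, beside 19% of all tested genes. Of these 12, 2 had higher and 10 had lower values. Among all tested genes 5.82% were higher and 13.2% lower, an imbalance that depended on the processing.

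**Figure D5:**
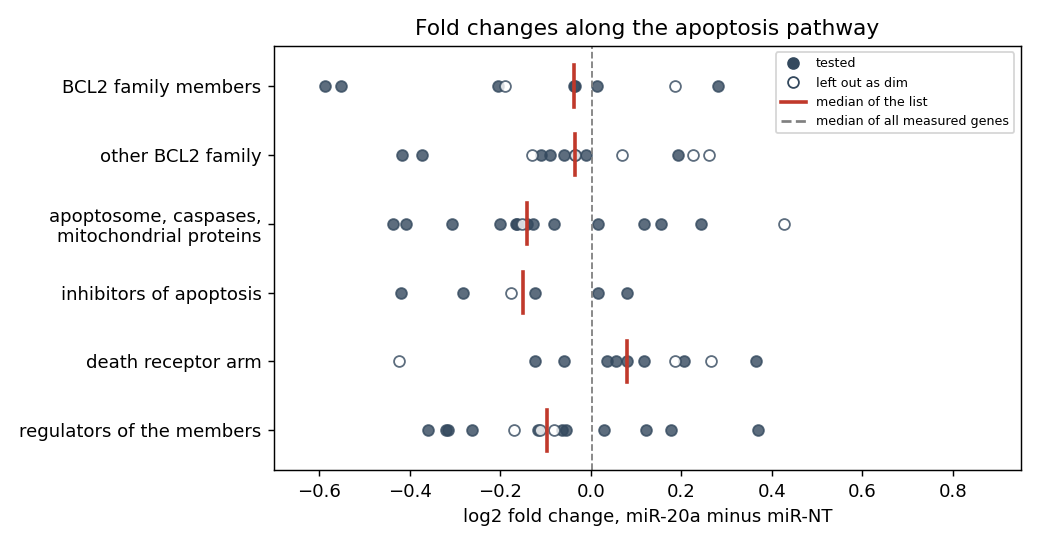
Log2 fold change, miR-20a minus miR-NT (horizontal axis), of the measured genes of the BCL2 family and of 5 lists of the apoptosis pathway; filled points were tested, open points were left out as dim, red bars are list medians and the dashed line is the median of all measured genes. The medians lie between −0.15 (inhibitors of apoptosis) and 0.08 (death receptor arm), and no gene shown passed the threshold.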

How the data were processed

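The authors deposited log2 expression values for 20323 probe sets on 4 arrays, and that unit was judged from their range. Per the labels' protocols, 6 ug of total RNA per sample was made into biotinylated cRNA. Per the submitters' processing notes the R package affy was used. How values were summarised, background-corrected and normalized, and which genome build was used, is not given in the sources used here. Precision is limited by the number of arrays.

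Samples were grouped by source name. Symbols came from the platform annotation, and 18036 gene identifiers were found in the RefSeq gene table. There were 18062 probe sets with 1 symbol, 886 with several and 1375 with none. The brightest probe set stood for each gene, and the 5315 dimmest genes were left out. The other 12401 went into a limma fit (version 3.58.1, R 4.3.3) of the difference miR-20a minus miR-NT, with eBayes moderation, two-sided p-values, Benjamini-Hochberg adjustment over all tested genes and a threshold of 0.05. It had 2 residual and 5.53 prior degrees of freedom. Members left out as dim were read from the same fit without the filter. The exact permutation test cannot go below p = 0.333 here and was not run. The fit was checked on simulated data with independent genes and shifts larger than those of the members. That check does not cover differences of the members' size.

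The members and gene lists were chosen with earlier results of these data known. Named were all members, QKI, the ACTB and GAPDH 5′ controls and the 3 tested genes with the smallest p in each pathway list. APAF1, CASP9, HRK, CYCS, FAS, TNFSF10, CD44 and PECAM1 were named after their values were seen.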

Additional observations from a re-analysis of the deposited data

How the results depend on the processing

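The deposited values were also quantile-normalized or centred on each array's median. Other fits kept all genes or left out the dimmest 50%, let the prior follow intensity with robust estimation, averaged each gene's probe sets, took the replicate number as a block or the ACTB 5′ signal as covariate, or left out an array. No member passed the threshold in any of the fits on all 4 arrays. Across the alternatives 12 of the members' log2 fold changes changed sign, and the cause was not tested. With an array left out only the fold changes of members are read, because a single array gives its group no spread. The filter, the prior, the block and the mean of probe sets cannot move a member's fold change, each member having 1 probe set; BCL2L1 falls out with the dimmest 50% and, like BCL2 and BCL2L11, was then read from the fit on all genes. With the ACTB 5′ covariate the values with another sign were 0.31 for BAD, 0.45 for BAX, −0.19 for BCL2L11, 0.30 for BID and 0.0043 for PMAIP1. After quantile normalization they were 0.071 for BID and 0.059 for PMAIP1. With an array left out BAK1 ranged from −0.057 to 0.085, BID from −0.16 to 0.085 and PMAIP1 from −0.083 to 0.0072. The members' median was 0.059 after quantile normalization, 0.23 with the covariate, and from −0.16 to 0.0072 with an array left out.

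Genes called higher numbered 2 after median centring, 1 with the robust trend and 1 with the covariate, and 0 to 302 with an array left out. Genes called lower numbered 5 after quantile normalization, 45 after median centring, 4 with the dimmest 50% left out, 23 with the robust trend, 5 with the covariate, 0 with the replicate block, and 0 to 1567 with an array left out. The arrays share only a replicate number, and the labels state no pairing. Across genes, which are not independent of each other, the differences within the miR-20a and miR-NT pairs correlated (Pearson's r = 0.267). What lies behind that correlation was not tested. With the replicate block no member passed (BCL2L1 log2 fold change −0.55, limma adjusted p = 0.139). Dim signal limits BCL2 and BCL2L11.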
